A study of Homo sapiens with 4 samples.

Results

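A small set of human transcripts had many ribosome profiling reads past the stop codon before any drug was added. The set is COMTD1, GPATCH4, IRF2BP2, SINHCAF, TAF1D, KRT10, MARCKS, PMAIP1, SS18L2 and HOXD11. They are 10 of 9271 transcripts (9265 gene names) in the deposited tables, and they were chosen by their ribosome readthrough score (RRTS) in untreated replicate A, which was at least 0.3. RRTS is the density of reads from the normal termination codon (NTC) up to the next stop codon in the same frame, in the 3′UTR (3′TC), divided by the density of reads in the coding sequence (CDS), so a value of 1 means that the stretch after the NTC was as densely read as the CDS. The threshold alone did not define the list. In untreated replicate A 204 transcripts with enough mRNA reads (the minimum set in the study's methods, used throughout) reached 0.3, of which 21 had at least 10 reads before the 3′TC, and the 10 named here are among those 21.

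The libraries came from HEK293T, an established human embryonic kidney line that carries the SV40 large T antigen. There were 4 ribosome profiling libraries, 2 of untreated cells (replicates A and B, 0 µg/mL) and 2 of cells kept for 24 hr in 500 µg/mL G418, an aminoglycoside antibiotic that makes the ribosome less accurate in choosing tRNAs. Pairs of values are given in the order replicate A, replicate B. All cells shared 1 line, medium and protocol, with cycloheximide in the lysis buffer, and the study calls the replicates biological. The labels do not say from which cultures they came. The main tests used 1 untreated library, so their p-values include no spread between untreated libraries. Their spread comes from the 2 G418 libraries and from all transcripts, and covers these libraries only.

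Reads on mRNAs ranged from 2440204 in untreated replicate B to 6082600 in untreated replicate A. Untreated replicate B was thus the least precise library, and all intervals below are exact 95% Clopper-Pearson intervals that cover counting error only. The kidney line markers KRT18, VIM, NEFM and LIN28B were read in every table and KRT8 at 1.45 to 2.13 RPKM, while PAX2 appeared in the 2 G418 tables only. ALB, PTPRC and HBB, which mark liver, leukocytes and red cells, were in no table, and COL1A1 (fibroblasts) lay between 3.59 and 5.54 RPKM.

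Translation normally ends at the NTC, where a release factor cuts the finished protein from its tRNA and the ribosome is taken apart. Readthrough happens when a near-cognate tRNA is accepted at the stop codon instead, and the ribosome then goes on in the same frame until the next stop codon. UGA is known as the leakiest stop codon and the nucleotide that follows it, called +4, is known to matter, with C the most permissive. Reads in a 3′UTR can also come from ribosomes in another frame, from another isoform whose CDS runs through the stretch, or from RNA that is not being translated, and count tables give no reading frame.

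The 30 nt around the NTC are shown for the transcripts listed here because the stop codon and its +4 nucleotide are the features known to set readthrough. They are given 5′ to 3′ on the mRNA strand in DNA letters of hg38, taken from GENCODE 44, with the stop codon and +4 in capitals after 15 nt of CDS.
SINHCAF: tccactcaggagtggTGACtgaggttttta
TAF1D: agaggcctgaaaatgTGACaggatcatgaa
HOXD11: ggaaaccccttatttTGAGagctccaggaa
PMAIP1: agactgcattgtaatTGAGaggaatgtgaa
GPATCH4: gagcagagcatgcagTGATggaagaagcag
COMTD1: ttggccttcaagatcTAGGgctggccccta
KRT10: aagggaccaagatacTAACaaaaccagagt
MARCKS: gcggaggcggcagagTAAAagagcaagctt
SS18L2: tcaaaagcaatggaaTAATctttcaaaagc

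Opal (TGA) stop codons ended 6 of the 10 CDSs, against 50.7% of all 9271 transcripts. TAA ended 3 (27.3% of all) and TAG ended 1 (22.1% of all). C followed the stop codon in 4 of 10 (23.0% of all), and the full context TGAC was found in 3 of 10, IRF2BP2, SINHCAF and TAF1D, against 10.8% of all. Past the minimum of mRNA reads, 10.6% of TGAC transcripts reached 0.3 in untreated replicate A, against 3.49% of all transcripts. A list picked at that threshold thus holds more TGAC than all transcripts do. Neither CTAG nor CAATTA, read on the mRNA strand directly after the stop codon, was present in any of the 10. Of 8929 transcripts that could be placed on GENCODE 44, 15 (0.168%) held CTAG there and 0 held CAATTA.

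The first in-frame 3′TC lay close to most of these stop codons. The distance from the NTC to the end of the 3′TC ran from 18 nt in MARCKS to 312 nt in HOXD11, with a median of 52.5 nt, while the quartiles of all transcripts were 39.0 and 126 nt. With the first 6 nt left out, the counted region was only 12 nt in MARCKS and 18 nt in TAF1D. Their scores therefore rest on few reads. The 3′UTRs spanned 104 nt (COMTD1) to 2896 nt (MARCKS) and held 2 to 59 in-frame stop codons.

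Several of the 10 also had high scores in the second untreated library. In untreated replicate A the RRTS of the 10 ran from 0.315 (SS18L2) to 42.0 (KRT10), values that reflect how they were picked. In untreated replicate B, which the threshold did not use, the range was 0.148 to 9.78 with a median of 0.361. How the 10 were taken from the 21 transcripts with enough reads is not known. Of the 7 transcripts that passed the minimum of mRNA reads there, COMTD1, GPATCH4, SINHCAF and MARCKS, 4 in all, again reached 0.3, compared with 2.94% of all 3743 transcripts with that many reads. PMAIP1 (0.288), IRF2BP2 (0.277) and SS18L2 (0.148) lay below it. KRT10, TAF1D and HOXD11 had 81, 99 and 100 mRNA reads in that library, under the minimum, and without it they also reached 0.3, for 7 of 10 against 4.16% of all transcripts. Of the 194 other transcripts that reached 0.3 in untreated replicate A, 55 did so again in untreated replicate B, also without a minimum there.

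**Figure D1:**
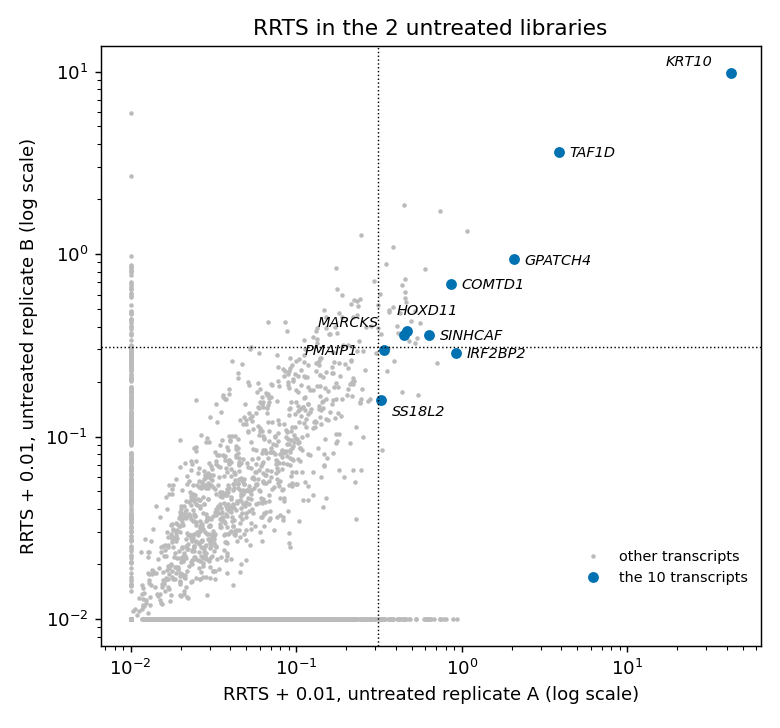
RRTS plus 0.01 in untreated replicate A (x axis) and untreated replicate B (y axis), both on log scales, with 1 point per transcript and dotted lines at the threshold of 0.3. Grey points are transcripts past the minimum of mRNA reads in each library, and the points lined up along each axis had no read before the 3′TC in the other library. The 10 named transcripts lie to the right of the vertical line by choice, and 7 of them also lie above the horizontal line.

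The threshold cuts through a continuous range. The lowest of the 10 in untreated replicate A were SS18L2 (0.315, 18 reads) and PMAIP1 (0.330, 13 reads). Just below 0.3 were KIDINS220 (0.2998 from 2 reads), DCAF10 (0.2953 from 1 read), LDHB (0.294 from 110 reads), KCTD17 (0.2921 from 4 reads) and MAP2K4 (0.292 from 1 read). Among the 194 transcripts at or above 0.3 that are not in the list the median was 2 reads before the 3′TC, while the fewest in any of the 10 was 11. The most highly read of those 194 were ZFR, TRRAP, TASOR2, DHX36 and MDN1, with 4, 4, 2, 22 and 1 reads before the 3′TC.

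The 5 other transcripts whose scores were most like the median of the 10 over the 4 libraries were ranked by the root mean square difference of log2(RRTS + 0.01). SCP2 was nearest at 0.230, followed by MSI2 at 0.413, DHX36 at 0.453, FKBP5 at 0.525 and TASOR2 at 0.532. DHX36 had RRTS values of 0.396 and 0.393 in untreated and 0.837 and 0.928 in G418-treated cells, replicates A and B.

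**Figure D2:**
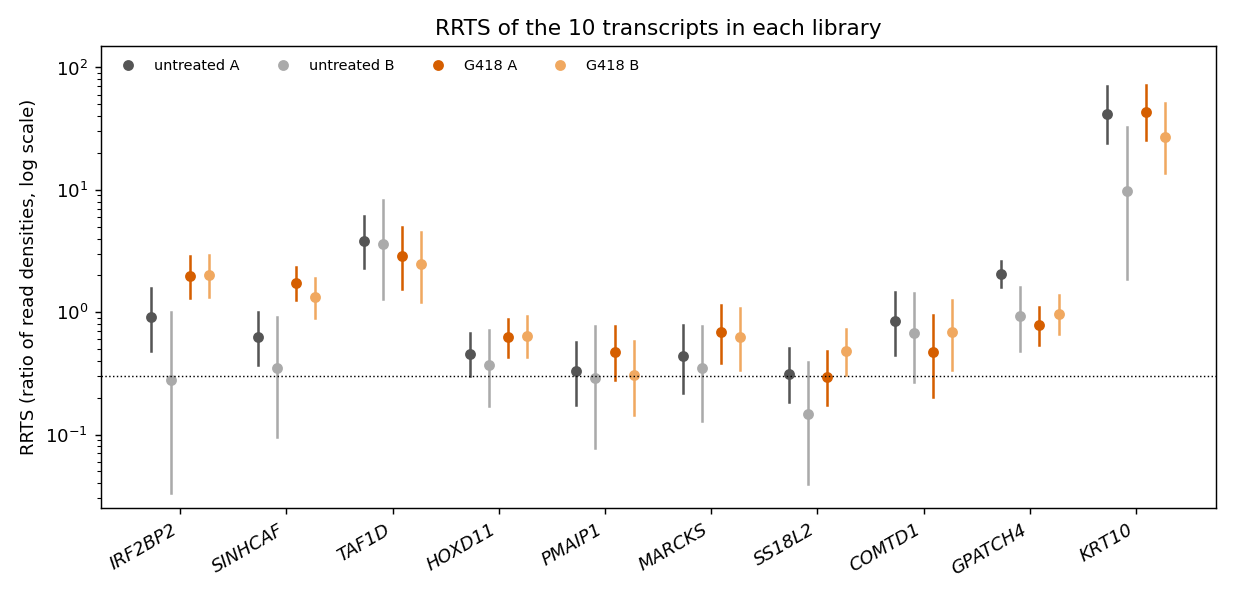
RRTS (y axis, log scale) of each of the 10 transcripts (x axis) in untreated replicates A and B and G418 replicates A and B, with vertical bars for the exact 95% counting intervals and a dotted line at 0.3. IRF2BP2, SINHCAF, MARCKS and HOXD11 show both G418 points above both untreated points. TAF1D shows the reverse order with overlapping intervals, and KRT10 lies above all others in every library.

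Against untreated replicate B, the RRTS of 2 of the 7 transcripts tested rose in the G418 libraries and none fell (edgeR quasi-likelihood test, adjusted p below 0.05). Over all 2129 transcripts tested, 62.5% rose and 0.047% fell. The fitted median log2 change was 4.79 over all transcripts and 0.90 over the 7, but 1026 of the 2129 transcripts had no read before the 3′TC in untreated replicate B and 1817 had fewer than 3. With 3 reads as a floor there the medians were 0.91 and 0.91, which for all transcripts is a lower bound set by the floor. The sizes therefore cannot be compared. Transcripts could also pass the minimum of reads before the 3′TC through their G418 reads alone. The share of all transcripts that rose depends on that minimum, so it does not show that the 7 respond less. Both G418 scores lay above that of untreated replicate B for 7 of the 10 and below it for 1, TAF1D. That order was not counted over all transcripts, so these counts show nothing particular to the list. Across the 4 libraries, which include the one that picked the list, both G418 scores lay above both untreated scores for IRF2BP2, SINHCAF and MARCKS, 3 of the 7 past the minimum of mRNA reads, and 76.6% of 3743 transcripts showed that order. HOXD11, under the minimum, showed it too. TAF1D, also under it, showed the reverse order, as did 15 of the 3743 transcripts.

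IRF2BP2 encodes a zinc finger corepressor that binds interferon regulatory factor 2. Its NTC is in the last of 2 exons. The region of 36 nt up to the 3′TC held 13 and 2 reads without drug and 28 and 28 reads with G418. RRTS was 0.915 and 0.277 in untreated cells and 1.97 and 2.00 in G418-treated cells, so the groups did not overlap. The untreated libraries differed from each other 3.30-fold, and the interval in untreated replicate B was 0.0334 to 1.01. Against that library log2 RRTS rose by 2.80 (SE 0.70, adjusted p = 0.0018, edgeR). The log2 difference from untreated replicate A, whose value chose the transcript, was 1.11 and is given without a test. After G418 only 9 and 3 of the 605 and 574 TGAC transcripts had a higher score, and the median TGAC score was 0.398 and 0.359.

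SINHCAF encodes a subunit of the SIN3-HDAC corepressor complex, which removes acetyl groups from histones. Its NTC is at chr12:31282712-31282714 (hg38, minus strand). Reads before the 3′TC, over 45 nt, numbered 18 and 4 without drug and 47 and 32 with G418. The corresponding RRTS values were 0.625, 0.352, 1.74 and 1.34. Every G418 value exceeded every untreated value. Log2 RRTS rose by 2.12 against untreated replicate B (SE 0.56, adjusted p = 0.0029, edgeR). The difference from untreated replicate A, whose value chose the transcript, was 1.30. CDS reads, 405 and 160 in untreated and 381 and 337 in G418-treated cells, showed a log2 change of -0.02 after normalization (SE 0.13, adjusted p = 0.95, edgeR).

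TAF1D, the remaining transcript with TGAC, had the opposite order of values. It encodes a subunit of the SL1 complex that brings RNA polymerase I to ribosomal DNA, its introns host small nucleolar RNAs, and its NTC is at chr11:93736161-93736163 (hg38, minus strand). The counted 18 nt held 20 and 6 reads without drug and 14 and 11 reads with G418. RRTS was 3.85 and 3.62 in untreated and 2.88 and 2.48 in G418-treated cells. Both G418 values were below both untreated values, yet the difference was within counting error, with a log2 change of -0.42 (SE 0.68, adjusted p = 0.57, edgeR) in a fit without the minimum of mRNA reads, which was added after the data were seen. In untreated replicate B no other TGAC transcript past the minimum of mRNA reads had a score above it, and in G418 2 of 605 and 2 of 574 did. The density of reads between NTC and 3′TC was thus above that of the CDS in each library, whether or not the drug was present.

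HOXD11 encodes a homeobox transcription factor of limb and kidney patterning, and it has the longest stretch to a 3′TC of the 10. Its NTC (chr2:176109140-176109142, hg38, plus strand) is followed by 103 sense codons before the TAG at chr2:176109452-176109454. The 306 counted nt held 30 and 10 reads without drug and 39 and 34 with G418. RRTS was 0.457 and 0.370 before treatment and 0.621 and 0.643 with G418. The ranges did not overlap. The log2 change against untreated replicate B was 0.77 (SE 0.44, adjusted p = 0.11, edgeR, no minimum of mRNA reads), which did not pass. HOXD10 overlaps this 3′UTR on the same strand in GENCODE 44, although no other annotated CDS covers the counted stretch.

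PMAIP1 (NOXA) encodes a BH3-only protein that promotes apoptosis by binding MCL1. The analysed isoform ends at chr18:59902846-59902848 (hg38, plus strand), and the stop codon of the isoform that GENCODE 44 marks as representative lies 95 nt upstream. Which isoform the reads came from was not tested, so the score may not describe the stop codon that the cells used. Over 57 nt there were 13 and 4 reads without drug and 18 and 10 with G418. RRTS was 0.330 and 0.288 in untreated and 0.476 and 0.307 in G418-treated cells, so the groups overlapped, and the log2 change was 0.46 (SE 0.76, adjusted p = 0.57, edgeR). Its 5′UTR took 35.2% to 46.0% of the mRNA reads in the 4 libraries, where the median over transcripts was 2.05% to 2.15%.

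MARCKS encodes a myristoylated substrate of protein kinase C that crosslinks actin at the plasma membrane. With 12 counted nt after its NTC (chr6:113860577-113860579, hg38, plus strand) it had 11 and 6 reads without drug and 15 and 13 with G418. RRTS was 0.437 and 0.352 in untreated and 0.692 and 0.628 in G418-treated cells. These values did not overlap, but the change of 0.90 on the log2 scale missed the threshold (SE 0.61, adjusted p = 0.18, edgeR). The 5′UTR of MARCKS also took a large share of its reads, 25.2% to 33.1%.

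SS18L2 encodes a small paralog of the chromatin remodelling subunit SS18, and its CDS of 234 nt is the shortest of the 10. After its NTC (chr3:42594507-42594509, hg38, plus strand) 48 nt held 18 and 4 reads without drug and 18 and 25 with G418. RRTS was 0.315 and 0.148 in untreated and 0.297 and 0.485 in G418-treated cells, and the groups overlapped. The log2 change was 1.36 (SE 0.66, adjusted p = 0.069, edgeR). The gene SEC22C lies over this 3′UTR on the opposite strand.

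COMTD1 encodes a protein with a catechol O-methyltransferase domain and is the only one of the 10 with an amber (TAG) stop codon (chr10:75234073-75234075, hg38, minus strand). Reads over its 51 counted nt were 13 and 7 without drug and 8 and 11 with G418. RRTS was 0.845 and 0.678 in untreated and 0.476 and 0.685 in G418-treated cells, with a log2 change of -0.22 (SE 0.67, adjusted p = 0.76, edgeR). In untreated replicate B no other TAGG transcript scored higher, and in the G418 libraries 37 of 365 and 12 of 352 did.

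GPATCH4 encodes a G-patch protein, a family whose members bind and stimulate DEAH-box RNA helicases. Its 69 counted nt held 78 and 13 reads without drug and 35 and 33 with G418. RRTS was 2.06 and 0.925 in untreated and 0.787 and 0.971 in G418-treated cells. Both G418 values lay near untreated replicate B, and only untreated replicate A stood apart. The log2 change against untreated replicate B was -0.09 (SE 0.42, adjusted p = 0.85, edgeR), and the difference from untreated replicate A, a value picked for being high, was -1.24. The deposited NTC is at chr1:156595213-156595215 (hg38, minus strand), at the end of a CDS of 1113 nt. GENCODE 44 types this transcript as a loss-of-function model and gives it a longer CDS with no annotated stop codon. The CDSs of 2 other GPATCH4 transcripts of that type are in the same frame as the deposited CDS. They cover all 69 counted nt and 226 nt of the 726 nt 3′UTR. The deposited NTC may thus not be a normal stop codon, which was not tested.

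KRT10, a type I keratin of differentiating epidermis that pairs with KRT1, had the highest score in every library. Its 24 counted nt held 24 and 3 reads without drug and 26 and 14 with G418, while the 1755 nt CDS (NTC at chr17:40818476-40818478, hg38, minus strand) held only 41, 22, 43 and 37 reads. RRTS was 42.0 and 9.78 in untreated and 43.4 and 27.1 in G418-treated cells. The groups overlapped. Log2 RRTS rose by 1.86 against untreated replicate B without the minimum of mRNA reads (SE 0.71, adjusted p = 0.030, edgeR), a call that 3 of the 10 then passed against 56.5% of 2776 transcripts. It rests on 3 reads in that library, and the difference from untreated replicate A, whose value chose the transcript, was -0.23. In GENCODE 44 another KRT10 isoform is read in a different frame and ends at chr17:40818376-40818378, so that its CDS covers all 24 counted nt and 97 nt of the 359 nt 3′UTR. KRT1 was in no table.

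CDSs of other transcripts on the same strand lay over the region before the 3′TC for KRT10 and GPATCH4, 2 of the 10, and for 250 of 8929 transcripts (2.80%). The part of overlapping CDSs in the scores of KRT10 and GPATCH4 was not tested.

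How far reads continued past the first 3′TC differed among the 10 transcripts. A ribosome that reads through the NTC can stop at the next in-frame stop codon, so the density after the 3′TC was divided by that before it. The paper reports that G418 made ribosomes pass 3′TCs more often than NTCs. The stretch after the first 3′TC also holds further in-frame stop codons, so the ratio does not measure stopping at that codon alone. Summed over transcripts past the minimum of mRNA reads, this ratio was 0.0840 and 0.0802 without drug and 0.0278 and 0.0281 with G418. Because reads before the 3′TC in untreated replicate A chose the list, the ratios of the 10 are given for the G418 libraries together. They were 0.00637 in IRF2BP2 (95% interval 0.0039 to 0.0102), 0.00758 in TAF1D (0.00254 to 0.0189), 0.0101 in MARCKS (0.00643 to 0.0163) and 0.0200 in SINHCAF (0.0117 to 0.0326). These 4 transcripts, 3 of them the TGAC transcripts, had the lowest ratios of the 10. In the untreated libraries together SINHCAF (0.00341) and TAF1D (0.00364) were below IRF2BP2 (0.00425) and MARCKS (0.00441), with overlapping intervals. Those ratios include the reads that chose the list, and that of SINHCAF rests on 1 read after the 3′TC. They cannot show whether the order changed.

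In the other 6 the density stayed higher after the 3′TC. With G418 the ratio was 0.140 in PMAIP1 (interval 0.0849 to 0.234), 0.156 in HOXD11 (0.0493 to 0.382), 0.162 in SS18L2 (0.108 to 0.245) and 0.267 in GPATCH4 (0.200 to 0.358). COMTD1 had 0.286 (interval 0.0833 to 0.791) over 47 nt. For KRT10 the interval of the ratio, 0.833 (0.603 to 1.18), included 1, and its 329 nt after the 3′TC held 173 and 56 reads without drug and 245 and 212 with G418. The lengths after the 3′TC differ from 47 to 2878 nt, and ratios over stretches of unequal length are a description.

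Over the whole 3′UTR fewer of the 10 had high scores. In untreated replicate B the density over the whole 3′UTR was at least 0.3 of the CDS density in COMTD1 (0.555), 1 of the 7 past the minimum of mRNA reads, and in 0.0801% of all such transcripts. KRT10, under the minimum, had 13.1. For MARCKS it was 0.00268 and for IRF2BP2 0.00697, against an RRTS of 0.352 and 0.277 in the same library.

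**Figure D3:**
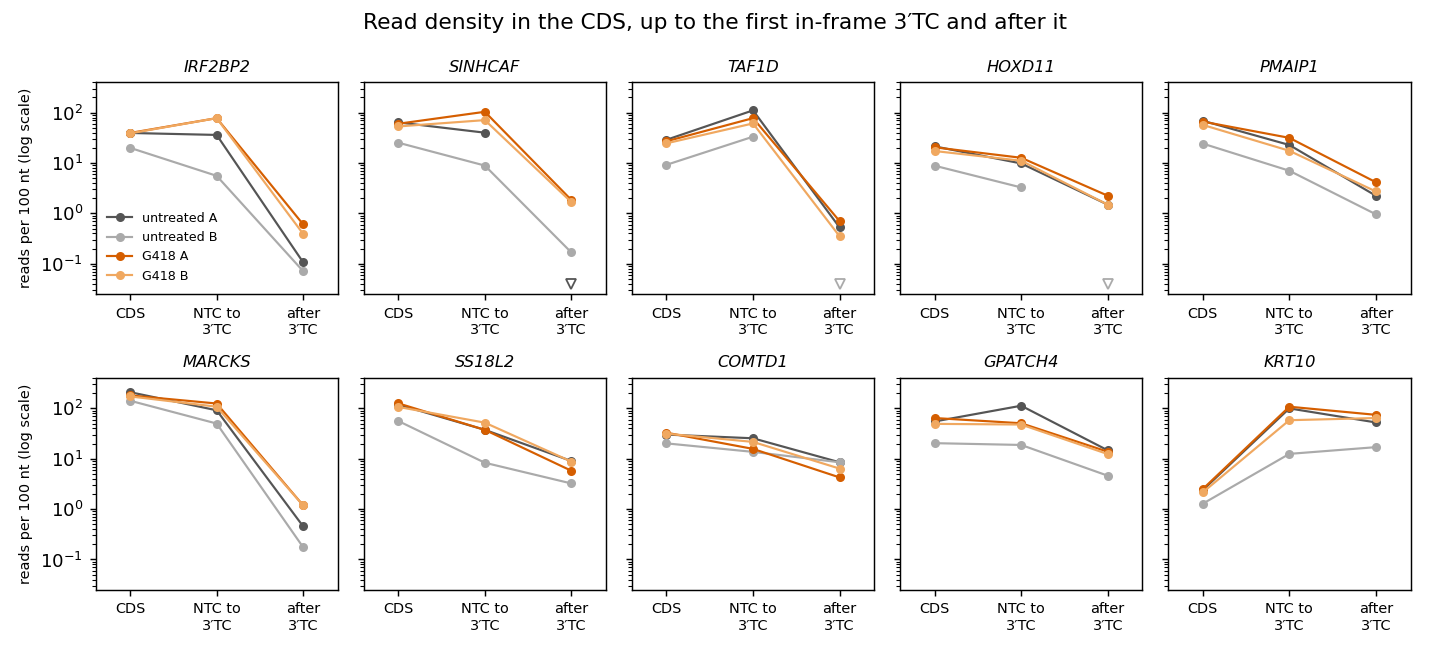
Reads per 100 nt (y axis, log scale) in the CDS, from the NTC to the first in-frame 3′TC and after it (x axis) for each of the 10 transcripts, with 1 line per library, and open triangles at the bottom for regions with no read. IRF2BP2, SINHCAF, TAF1D and MARCKS drop by more than 10-fold after the 3′TC, and KRT10 stays far above its CDS in both 3′UTR regions.

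Reads after the 3′TC were tested per CDS read for the 6 of the 10 that had enough of them. MARCKS was the only transcript that rose, against 25.9% of 1447 transcripts tested. It had 13 and 5 reads over 2878 nt without drug and 34 and 34 with G418, without overlap. The log2 rise was 2.43 (SE 0.51, adjusted p = 0.010, edgeR). Its reads over the whole 3′UTR rose too, by 1.80 (SE 0.40, adjusted p = 4.9e-05, edgeR), as did those of IRF2BP2 and SINHCAF, 3 of 7 against 64% of 2832 transcripts.

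IRF2BP2 had 3 and 2 reads after its 3′TC without drug and 17 and 11 with G418, with a log2 change of 1.80 (SE 0.81, adjusted p = 0.093, edgeR). For SINHCAF the reads were 0, 1, 11 and 10, and the change was 2.15 (SE 0.99, adjusted p = 0.10, edgeR). Neither passed. A count of 0 in untreated replicate A still allows a density of up to 0.00967 of the CDS density (upper 95% limit). With all 4 libraries both passed, and their values are given under the processing alternatives.

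For GPATCH4, SS18L2 and PMAIP1 the change in reads after the 3′TC did not pass. The log2 value was 0.04 for GPATCH4 (SE 0.36, adjusted p = 0.93, edgeR), 0.12 for SS18L2 (SE 0.50, adjusted p = 0.85, edgeR) and 0.50 for PMAIP1 (SE 0.58, adjusted p = 0.49, edgeR). KRT10 could be tested only without the minimum of mRNA reads and then rose by 1.18 (SE 0.25, adjusted p = 0.034, edgeR), with 10.7% of 1802 transcripts higher in that fit. The value was 0.44 against untreated replicate A, whose CDS reads entered the score that chose the list, and is given without a test. COMTD1, TAF1D and HOXD11 held fewer than 10 reads after the 3′TC over the 3 libraries.

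Reads in the CDS, the denominator of the score, changed in 2 of the 10. CDS reads fell in MARCKS and COMTD1, against 9.37% of 8574 transcripts that fell and 7.23% that rose, and no member of the list rose. The density of MARCKS was 235 and 365 RPKM without drug and 215 and 225 RPKM with G418, a log2 fall of 0.87 (SE 0.06, adjusted p = 2.6e-37, edgeR). COMTD1 had 33.8 and 52.0 RPKM in untreated and 39.3 and 41.0 RPKM in G418-treated cells, a log2 fall of 0.51 (SE 0.15, adjusted p = 0.0051, edgeR). Both falls rest on untreated replicate B. Against untreated replicate A the log2 change was -0.11 for MARCKS and 0.23 for COMTD1. The CDS reads of that library entered the score that chose the list, so these values are given without a test. The other 8 ranged from -0.35 (KRT10) to 0.30 (TAF1D) and none passed.

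**Figure D4:**
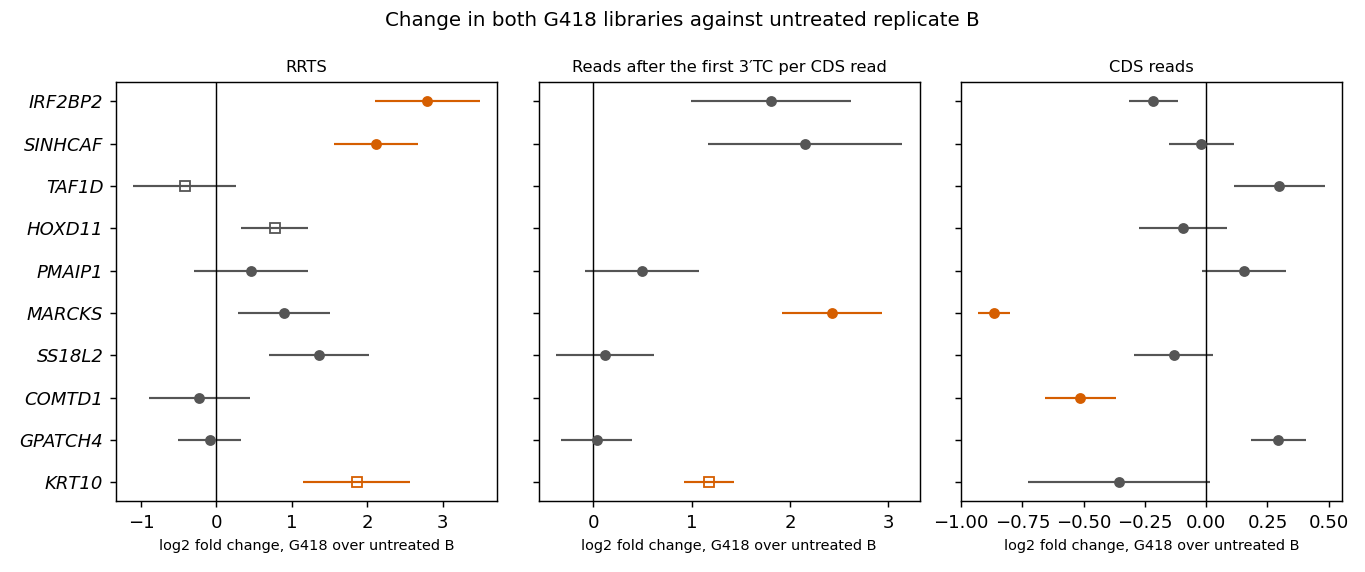
Log2 fold changes (x axes) of the 2 G418 libraries against untreated replicate B for the 10 transcripts (y axis), in RRTS, in reads after the first 3′TC per CDS read and in CDS reads, with bars for 1 SE. Orange marks an adjusted p below 0.05, open squares mark values from the fit without a minimum of mRNA reads, and a missing point had fewer than 10 reads. IRF2BP2 and SINHCAF are orange in the first panel, MARCKS in the second and MARCKS and COMTD1 in the third, with KRT10 orange as an open square in the first and second.

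Paralogs and partners of the 10 were taken from a list. Of 45 listed genes (keratins, HOX genes, SIN3 complex subunits, BCL2 family members, G-patch proteins and others) 34 were in all 4 tables, and 17 passed the minimum of mRNA reads in untreated replicate B. None of the 17 reached an RRTS of 0.3 there, but 2.94% of all transcripts did, so 17 genes are too few to show a difference. Without the minimum SS18L1 (1.01), GPATCH2 (0.338) and BCL2L11 (0.314) passed 0.3, each from 1 read. Of the 17, 8 had no read before the 3′TC, and the highest score was 0.196 in HOXD13, from 1 read. With G418 the RRTS of 6 of the 11 tested rose and none fell, beside the 62.5% and 0.047% of all transcripts given above. These counts show nothing particular to the partners. MARCKSL1, the paralog of MARCKS, had RRTS values of 0.0160 and 0.00909 in untreated and 0.248 and 0.234 in G418-treated cells, and log2 RRTS rose by 4.71 (SE 0.39, adjusted p = 4.1e-10, edgeR). HDAC1, the deacetylase of the complex that SINHCAF joins, went from 0.0103 and 0.0146 to 0.466 and 0.474. Their scores with G418 lay below those of MARCKS and SINHCAF themselves, which were picked for high scores. Other partners had the opposite order. HOXD13 had 1.19 and 0.685 with G418, against 0.621 and 0.643 in HOXD11, and MCL1 and BAK1 lay above PMAIP1.

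Among the partners, CDS reads rose in TBP (0.49) and BAK1 (0.76) and fell in MARCKSL1 (-0.18), IRF2BPL (-0.48) and MCL1 (-0.40), all as log2 changes past an adjusted p of 0.05 in edgeR. These are 2 higher and 3 lower of 34 tested, beside the 7.23% and 9.37% of all transcripts given above. MARCKSL1 had 495 and 572 RPKM without drug and 556 and 553 RPKM with G418, and IRF2BPL had 10.6 and 13.0 RPKM without drug and 9.96 and 10.6 RPKM with it, so neither fall holds against untreated replicate A in both G418 libraries. IRF2BPL, the paralog of IRF2BP2, scored 0.441 in untreated replicate A from 1 read and had no read before its 3′TC in untreated replicate B.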

How the data were processed

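Tables of 4 HEK293T ribosome profiling libraries were used. Per the study's methods, the authors merged duplicate reads by sequence and molecular identifier, removed reads of noncoding RNA, aligned the rest to hg38 with STAR guided by GENCODE 30, kept a single alignment of reads that map to several places, and assigned reads of 28 to 35 nt to 1 transcript per gene. CASAVA 1.8 and STAR are named in the submitters' processing notes. The deposited counts are whole reads per region. The authors' RPM values scale them to mapped reads per library. The deposited RPKM densities divide RPM by region length, leaving out 18 nt and 15 nt at the ends of the CDS and 6 nt after the NTC. The deposited ratio columns are RRTS and 3′UTR occupancy, and the authors' 5′UTR densities, some of them negative, are listed as a score and entered no result. Tables list transcripts from about 1 RPKM upward, and a transcript missing from a table was not compared there.

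Reads were recovered from RPM (100% of values were whole multiples of 1 read, within 0.01) and RRTS was recomputed from them. The 10 transcripts, the gene lists and the tests were chosen with earlier results of these data known. Because untreated replicate A chose the list, tests compared untreated replicate B with both G418 libraries. They used edgeR's quasi-likelihood test, on reads before or after the first 3′TC with log(CDS reads + 0.5) as offset (at least 128 mRNA reads in untreated replicate B and in the G418 libraries together, and 10 reads in the region), and on deposited CDS counts with TMM normalization. Benjamini-Hochberg adjusted p-values cover all transcripts tested. With 1 untreated library the spread comes from the G418 libraries and from all transcripts. Fold changes are log2 values from the fit, and SE is the log2 change divided by the square root of F. On simulated data with 200 transcripts changed 4-fold, edgeR recovered 36% for RRTS, 32% for reads after the 3′TC and 94.5% for CDS reads, and 1.37%, 8.571% and 3.077% of the calls were false, above the 5% aimed at for reads after the 3′TC. Named genes are the 10, their neighbours at 0.3, the 5 most like them and listed partners, by highest or lowest score in untreated replicate B; MARCKSL1, HDAC1, IRF2BPL and the partners with changed CDS reads were named after their values were seen. Alternatives were all 4 libraries, the replicate letter as a block, single libraries left out, DESeq2, other minimum reads, other normalization and the whole 3′UTR. The tools were edgeR 4.0.16 and DESeq2 1.42.0 in R 4.3.3, and scipy 1.17.1, pandas 2.3.3 and numpy 2.4.6 in Python 3.11.15, with matplotlib 3.10.9 for plots. Sequences and coordinates come from GENCODE 44 on hg38. The sequence and position of the IRF2BP2 NTC are not reported here.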

Additional observations from a re-analysis of the deposited data

How the results depend on the processing

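The count of transcripts with changed RRTS was 1332 and became 2338 with all 4 libraries and 699 with DESeq2, and 1379 to 2179 when 1 other library was left out. For reads after the first 3′TC the count of 375 became 901 with all 4 libraries, 88 with DESeq2, 193 without a minimum of mRNA reads (added after the data were seen), and 431 to 705 leaving out 1 library. For CDS reads the count of 1423 (620 higher, 803 lower) became 724 with all 4 libraries, 291 with DESeq2, 73 and 77 without G418 replicate B or A and 2087 at most leaving out 1 library, and split into 1022 higher and 494 lower with library totals. The number of the 10 with an RRTS of at least 0.3 in untreated replicate B, 4, became 7 without the minimum of mRNA reads and 1 over the whole 3′UTR, where the alternatives count other transcripts or another region.

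The letters A and B were shared by untreated and G418 libraries. Differences between A and B correlated across conditions at 0.30 for CDS reads of 5153 transcripts, 0.022 for RRTS and 0.086 for reads after the 3′TC, and with 2 letters this does not show that the samples are paired. With the letter as a block and all 4 libraries, 1854 transcripts changed in RRTS, 677 in reads after the 3′TC and 1070 in CDS reads. In that blocked fit log2 values of opposite sign were -0.20 (SS18L2) and -0.14 (GPATCH4) for reads after the 3′TC and 0.0069 (SS18L2) for CDS reads.

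IRF2BP2 and SINHCAF kept their rise in RRTS in each alternative run, with adjusted p = 0.044 and 0.047 in DESeq2. The runs with all 4 libraries, with the block and with 1 library left out include untreated replicate A, which chose the list. Of 237 values of the 10 under alternatives, 185 kept direction and call, 16 gained a call, 11 lost it and 25 changed sign. With all 4 libraries IRF2BP2 (2.04) and SINHCAF (3.78) passed for reads after the 3′TC, while the RRTS value of GPATCH4 was -0.96, in a fit that includes untreated replicate A, which chose the list. Values of opposite sign with all 4 libraries were -0.15 (SS18L2) and -0.13 (GPATCH4) after the 3′TC and 0.014 (SS18L2) for CDS reads. GPATCH4 was 0.0025 over the whole 3′UTR and SINHCAF 0.065 in CDS reads with library totals. Leaving out 1 library reversed RRTS of PMAIP1 (-0.052) and KRT10 (-0.23 to -0.14; 0.51 without G418 replicate B), reads after the 3′TC of SS18L2 (-0.60 to -0.28; 0.23 without G418 replicate A) and GPATCH4 (-0.24, -0.21 and -0.0056), and CDS reads of SS18L2 (0.0030, 0.0031 and 0.10), PMAIP1 (-0.033), KRT10 (0.061), IRF2BP2 (0.069 and 0.12), COMTD1 (0.23) and TAF1D (-0.034). The cause was not tested. Depth limits these values: the 10 had 2 to 13 reads before the 3′TC in untreated replicate B.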
